A study of Mus musculus with 4 samples.

Results

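Gene expression in hippocampus was set against that in forebrain in fetal C57BL/6J mice at embryonic day 18 (E18) whose dams had received phosphate-buffered saline (PBS). The pair consists of the 2 arrays whose titles name these tissues after PBS, out of 4 arrays in the series, and the measure is the difference of log2 values, hippocampus minus forebrain, for 19938 genes that a probe set names alone. Pregnant dams were given PBS or ethanol (2.9 g per kg per day of a 15% v/v solution) into the stomach on 5 days, ED8 to ED12, and fetuses were taken by Cesarean section at E18. The 4 groups are forebrain after PBS, hippocampus after PBS, forebrain after ethanol and hippocampus after ethanol, with 1 array each, all of strain C57BL/6J. The PBS animals are thus handled and dosed controls, not undisturbed ones. The labels do not say how many embryos or litters each array holds, nor whether the tissues came from the same embryos, and the label forebrain names no borders, so the hippocampus may or may not be part of it. With 1 array a side the PBS difference has no replicate spread and no p-value, and every value below is a description of these arrays.

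The hippocampus forms from the medial edge of the dorsal telencephalon, next to the cortical hem, a strip of signalling tissue that secretes Wnt and bone morphogenetic proteins, and next to the choroid plexus, which makes cerebrospinal fluid. Its pyramidal fields CA1 and CA3 are laid down before birth, while granule cells of the dentate gyrus are still being produced around birth. The forebrain as a whole also includes neocortex, striatum, septum, olfactory bulb, thalamus and hypothalamus, and the meninges cover its surface.

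Genes lower in hippocampus outnumbered genes higher in it. Genes whose mean over the 4 arrays lay below 7.11, the midpoint of the probe set means on the log2 scale, were set aside, which left 11013. Of these, 131 were at least 1.5-fold lower in hippocampus than in forebrain (1.19% of kept genes) and 10 were at least 1.5-fold higher (0.0908%). At 2-fold 28 genes were lower and 0 higher. With no threshold, 47.5% of kept genes read lower and 52.4% higher. The median difference over kept genes was 0.0068 on the log2 scale, their standard deviation 0.178, and the outermost percentiles on either side lay at -0.62 and 0.37. The arrays correlated across kept genes at r = 0.987, where genes are not independent replicates. For 40 of the 131 lower genes the hippocampus reading itself lay below the filter value, where a reading may be close to background. Of all genes past 1.5-fold, 8 had further probe sets, and 12 of these 13 probe sets had the same sign.

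The lowest of all was Cdhr1, a cadherin-related gene of photoreceptors and of olfactory bulb mitral cells, which read 7.96 in forebrain and 6.13 in hippocampus after PBS, a difference of -1.83. AW551984 read 9.97 and 8.45, a difference of -1.53. Slc7a11, which encodes the cystine and glutamate exchanger, read 9.01 and 7.54 (-1.46), and Slc6a13, a transporter of GABA and taurine found in meninges, read 8.92 and 7.49 (-1.43). The prostaglandin D synthase gene Ptgds, abundant in the arachnoid, read 9.45 and 8.03 (-1.43). The neuronal copine gene Cpne6 read 8.46 and 7.09 (-1.36), and Hap1, which encodes huntingtin-associated protein, 9.19 and 7.86 (-1.33). The remaining genes among the 15 lowest were the matrix proteoglycans Dcn (-1.35) and Fmod (-1.28), the organic anion transporter Slc22a6 (-1.27), the carbonic anhydrase-related gene Car10 (-1.21), the retinoic acid synthesis gene Aldh1a2 (-1.17), the macrophage mannose receptor Mrc1 (-1.16), the lipocalin Apod (-1.13) and Brinp3 (-1.12), a neuronal gene.

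On the higher side the values were smaller, and their members were of other kinds. The Y-linked translation factor gene Eif2s3y read 7.94 in forebrain and 8.79 in hippocampus (0.85), and the Y-linked genes Uty and Kdm5d differed by 0.69 and 0.62. Nexn, whose product binds actin filaments, read 6.71 and 7.45 (0.74), and Strip2, a partner of striatin phosphatase complexes, 6.96 and 7.67 (0.71), so both forebrain readings were under 7.11. The other 5 genes past 1.5-fold were Atad2, a chromatin factor of dividing cells, at 0.62, the folate receptor gene Folr1 and the methionine sulfoxide reductase gene Msra at 0.61, and the DNA sensor gene Aim2 and the choroid plexus gene Clic6 at 0.60. Next came the transthyretin gene Ttr (0.57), the transcription factor gene Ebf1 (0.57), the semaphorin gene Sema3c (0.56), the mitochondrial gene Fam210b (0.55) and the kinetochore gene Knl1 (0.55).

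**Figure D1:**
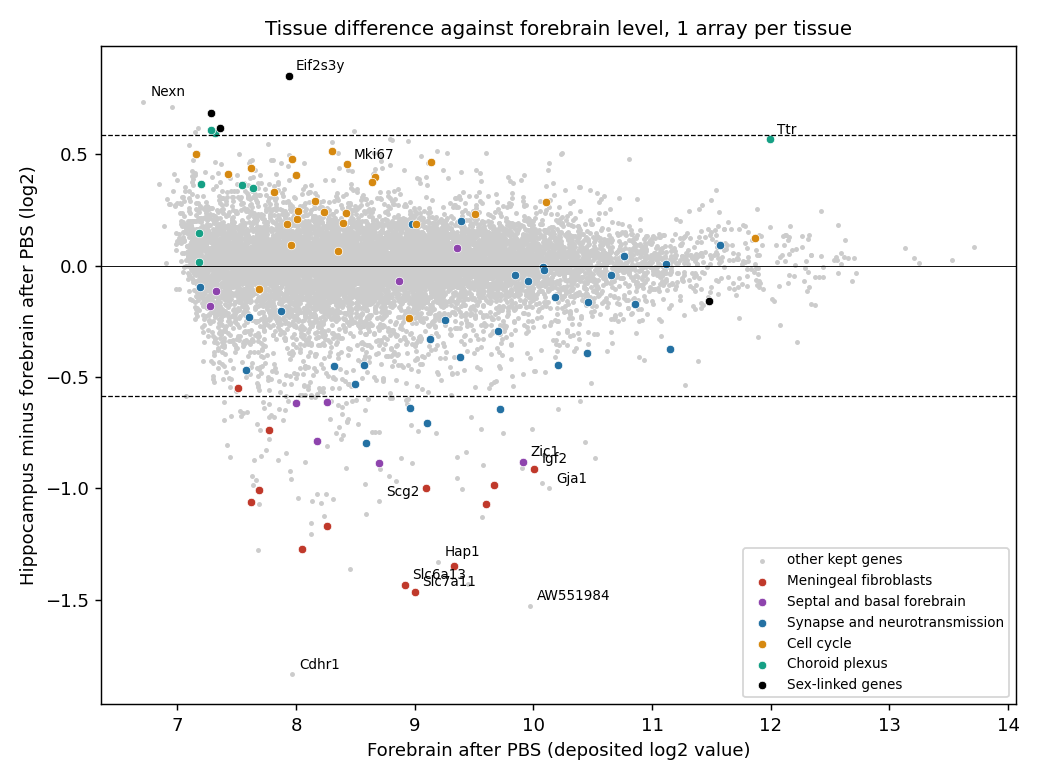
Difference hippocampus minus forebrain after PBS (log2, vertical axis) against the forebrain PBS value (deposited log2, horizontal axis) for 11013 kept genes, 1 array per tissue, with 6 gene lists coloured and dashed lines at 1.5-fold. Meningeal genes lie between -1.46 and -0.55, all below 0, and 24 of 26 cell cycle genes lie above 0.

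Markers of hippocampal fields did not stand higher as a group in the hippocampus array. For comparison, 52.4% of all kept genes were higher and 47.5% lower. Of 13 kept genes of CA1 and CA3, 8 read higher and 5 read lower (median 0.05, and 0.24 with a filter at the 75th percentile), and of 7 kept dentate genes 2 read higher and 5 read lower (median -0.10). No marker was 1.5-fold higher, and 1 was 1.5-fold lower. That gene was Nrp2, a semaphorin receptor that both lists hold, at 10.09 in forebrain and 9.24 in hippocampus (-0.85). Prox1, the defining transcription factor of dentate granule cells, read 8.51 in forebrain and 8.35 in hippocampus (-0.16). The CA1 gene Wfs1 read 7.43 and 7.37 (-0.05), and the CA3 kainate receptor gene Grik4 read 7.90 and 7.84 (-0.06). These differences are smaller than the standard deviation of all kept genes. The largest difference upward was that of Zbtb20, a transcription factor needed for hippocampal identity, at 10.40 and 10.75 (0.35), and its further probe set differed by 0.37. Mpped1 and Nectin3 followed at 0.25 and 0.24, and the proneural gene Neurod1 stood at 0.30. Calb1, a calcium-binding protein of granule cells, differed by -0.58, and C1ql2, Lef1 and Npnt lay between -0.10 and 0.02. The dentate markers Dsp, Tdo2 and Plk5 and the CA1 marker Fibcd1 were under the filter. As a group these markers therefore did not separate the hippocampus array from the forebrain array. What this means for the label was not tested, and the borders of the forebrain piece are not given. Prox1, Lef1 and Pou3f1 are also in lists of other regions. The tissue is called hippocampus here only as its title does.

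Genes of meningeal fibroblasts, the cells that make the membranes around the brain, were lower in hippocampus as a group. Like every list here, theirs was chosen with earlier results of these data known. All 13 kept members were lower, 12 of them by 1.5-fold or more where 1.19% of kept genes were, and the median was -1.06 against 0.0068 over all kept genes. Their summed signal, back on a linear scale, was 6189 in forebrain and 2922 in hippocampus after PBS. The collagen genes Col1a1, Col1a2 and Col3a1 differed by -0.98, -1.07 and -0.999, the transcription factor genes Foxd1 and Foxc1 by -1.06 and -0.55, the connexin gene Gjb2 by -1.01 and the growth factor gene Igf2 by -0.91. After PBS the hippocampus readings of Foxd1 (6.56), Gjb2 (6.68), Slc22a6 (6.77), Foxc1 (6.97), Crabp2 (7.04) and Aldh1a2 (7.09) lay below the filter value. Those of Foxd1, Gjb2 and Foxc1 did so after ethanol as well, so these genes were kept through forebrain alone. Their lower hippocampus reading was therefore partly fixed by the filter. Another 6 listed genes, under the filter, were lower as well, from Tbx18 at -0.86 to Alx4 at -0.16. In bulk tissue fewer cells of a type and less RNA per cell cannot be told apart. How much meninges stayed on each dissected piece is not in the labels, and its part in the other differences was not tested.

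Genes of macrophages that line the meninges and vessels went the same way, and most kept microglial genes differed less. Mrc1 read 8.13 and 6.97 (-1.16), Lyve1, a hyaluronan receptor, 7.39 and 6.70 (-0.69), and F13a1, which encodes a coagulation factor subunit made by such macrophages, 8.59 and 7.47 (-1.11). Lyve1 lay below the filter value on both hippocampus arrays. F13a1 is not in the list and was named because it was lower in both pairs. In contrast, the microglial receptors Csf1r and Cx3cr1 differed by -0.25 and -0.12 and the cathepsin gene Ctss by 0.07. In all 7 of 8 kept genes of this list were lower (median -0.18), where 47.5% of all kept genes were. C1qc, the lowest after Mrc1 and Lyve1, stood at -0.48. Another 8 listed genes were under the filter, among them P2ry12 and Tmem119 (-0.02 and -0.17) and Pf4 and Cd163 (-0.71 and -0.59). Pericyte and smooth muscle genes were lower for 7 of 7 (median -0.18), mainly by Acta2, smooth muscle actin, at -1.04 and Vtn, vitronectin, at -0.89, while Pdgfrb and Rgs5 stood at -0.19 and -0.18. Endothelial genes were lower for 12 of 14 (median -0.20), with the junction gene Cdh5 at -0.72, the growth factor receptor Kdr at -0.33 and the transporter Slco1c1 at 0.30. Of erythroid genes only Alas2 (-0.10) and Car2 (-0.04) were kept.

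The Zic genes, which encode zinc finger transcription factors of dorsal midline, septum and meninges, were lower in hippocampus. Of 9 kept septal and basal forebrain genes 8 were lower and 5 by 1.5-fold, with a median of -0.61 that is the value of Zic5. Over all kept genes 47.5% were lower and 1.19% by 1.5-fold. Zic1 read 9.91 in forebrain and 9.03 in hippocampus (-0.88), Zic2 8.70 and 7.81 (-0.89) and Zic4 8.17 and 7.39 (-0.79). Zic5 read 8.26 and 7.65 (-0.61), and its other probe set read 7.54 and 7.36 (-0.18). RefSeq places Zic5 on chromosome 14, whereas all 10 named probe sets numbered nearest to the brighter one are of chromosome 11 genes, so that it may not measure Zic5. With the other probe set 4 genes of the list were 1.5-fold lower and its median was -0.18, and with Zic5 left out -0.40. The used probe sets of Zic1, Zic2 and Zic4 are numbered among genes of their own chromosome. Zic4 also has a dimmer probe set, below the filter value, at 6.40 and 6.33 (-0.07), with 9 of 10 such neighbours on chromosome 7 although the gene is on 9. Lhx8, a factor of cholinergic neurons, read 7.997 and 7.38 (-0.62). The cholinergic genes Ngfr and Slc18a3 stood at -0.18 and -0.12, Isl1 at -0.07 and the channel gene Trpc4 at 0.08, and Gbx1, Chat and Slc5a7 were under the filter. The median of this list was -0.37 without a filter, -0.07 with a stricter filter at the 75th percentile and -0.40 with all probe sets of a gene averaged. Zic1 and Zic4 lie on opposite strands of chromosome 9, and their promoters are shown because the genes were lower together. They are RefSeq windows in build GRCm38.p6 from 250 bases before to 50 after the start, chr9:91365719-91366018 on the minus strand for Zic1 and chr9:91368722-91369021 on the plus strand for Zic4. Capitals mark CCAAT or TTTGAA on either strand, motifs that are described with the cell cycle genes below.
Zic1: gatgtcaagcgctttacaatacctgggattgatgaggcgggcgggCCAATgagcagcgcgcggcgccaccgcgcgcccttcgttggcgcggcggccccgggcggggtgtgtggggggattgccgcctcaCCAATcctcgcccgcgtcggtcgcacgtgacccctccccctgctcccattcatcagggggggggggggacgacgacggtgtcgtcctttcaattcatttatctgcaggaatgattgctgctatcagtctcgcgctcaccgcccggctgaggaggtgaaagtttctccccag
Zic4: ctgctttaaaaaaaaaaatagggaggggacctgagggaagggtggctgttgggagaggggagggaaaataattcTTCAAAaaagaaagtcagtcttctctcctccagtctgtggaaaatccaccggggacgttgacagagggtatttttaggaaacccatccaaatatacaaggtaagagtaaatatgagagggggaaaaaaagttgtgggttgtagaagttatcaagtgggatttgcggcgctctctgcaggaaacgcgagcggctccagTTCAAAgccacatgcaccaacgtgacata
The windows differ in base composition: 65.3% of the Zic1 window and 46.0% of the Zic4 window are G or C. Zic1 holds 2 matches to CCAAT and 0 to TTTGAA, and Zic4 0 and 2. Of the 8 kept septal and basal forebrain genes with a window, 2 (25%) hold CCAAT, against 41.1% of all genes. TTTGAA is in 1 of the 8 (12.5%), against 20.2% of all genes.

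Other regions of the forebrain gave smaller or mixed differences. For comparison, 47.5% of all kept genes were lower after PBS. Thalamic and habenular genes were lower for 10 of 13 (median -0.17), led by the calcium-binding protein gene Calb2, at 8.85 in forebrain and 7.88 in hippocampus (-0.97), the netrin-G gene Ntng1 (-0.76, but -0.09 on its other probe set), the transcription factor genes Tcf7l2 (-0.52) and Lhx9 (-0.46) and the vesicular glutamate transporter Slc17a6 (-0.45). Of 20 hypothalamic genes only 4 were kept, with Hap1 at -1.33 and Otp, Cartpt and Oxt at -0.22, -0.03 and 0.02 (median -0.13). Olfactory bulb genes were lower for 5 of 8 (median -0.13), and next to Cdhr1 the largest were the factor genes Tshz1 at -0.45 and Eomes at 0.47, the latter also a gene of cortical intermediate progenitors. The mitral cell gene Tbx21 and the dopamine synthesis gene Th were under the filter. Cajal-Retzius genes were lower for 6 of 9 (median -0.16, and 0.08 with the stricter filter), with Cacna2d2 at -0.57 and Ebf3 at -0.50, while Reln, which encodes reelin, the secreted product of these cells, stood at -0.16.

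Genes of GABAergic neurons and of striatum showed no common direction after PBS. Among all kept genes, 52.4% were higher, 47.5% lower and 1.19% lower by 1.5-fold. In the interneuron lineage 10 of 20 were higher and 10 lower (median -0.01), and 2 were 1.5-fold lower. These were somatostatin (Sst), at 10.07 in forebrain and 9.10 in hippocampus (-0.98), and Calb2. The GABA synthesis gene Gad1 stood at -0.35, the chemokine receptor Cxcr4 at 0.33, the exchange factor gene Tiam2 at 0.40 and the serotonin receptor Htr3a at 0.25. Striatal projection neuron genes were higher for 12 of 19 and lower for 7 (median 0.09). Higher were Ebf1 at 0.57, the transcription factor gene Foxp1 at 0.42 and the dopamine receptor gene Drd2 at 0.29. The retinoid receptor genes Rxrg and Rarb stood at 0.35 and 0.25. Among the lower members were Penk at -0.23, Adcy5 at -0.22, Rgs9 at -0.19 and the dopamine receptor gene Drd1 at -0.01.

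Genes of deep and upper cortical layers tended to be slightly higher in hippocampus, none by 1.5-fold. Of all kept genes 52.4% were higher, and the list medians below are smaller than the standard deviation of 0.178 over kept genes. Deep-layer genes were higher for 14 of 18 (median 0.13), among them Nfia and Nfix at 0.34, the corticospinal factor Fezf2 at 0.31 and Sox5 at 0.26, with Tshz2 at -0.41. Upper-layer genes were higher for 11 of 16 (median 0.08), led by the POU factor genes Pou3f2 at 0.46 and Pou3f3 at 0.37. The 5 lower members included Kitl at -0.29 and Rorb at -0.16. Pallial patterning genes were higher for 8 of 15 (median 0.08, and -0.09 with the stricter filter), close to the share over all kept genes. Among them Emx2, which is needed for a normal hippocampus, read 0.33 higher and its relative Emx1 0.20 higher, Gli3, which shapes the medial pallium, was at 0.48, and the nuclear receptor gene Nr2f2, strong in caudal and ventral regions, at -0.79. Genes of the cortical hem and of Wnt signalling were divided 7 to 7, with a median of -0.0040 (0.0057 with each array centred). The Wnt agonist gene Rspo3, known from the cortical hem, read 0.41 higher, the inhibitor Sfrp1 0.27 higher and the feedback gene Nkd1 -0.32. The hem ligands Wnt2b, Wnt3a and Wnt8b were under the filter.

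Progenitor and cell cycle genes were higher in hippocampus by small amounts and in most members. Radial glia and progenitor genes were higher for 17 of 20 (median 0.19), where 52.4% of kept genes were higher. Insm1, a factor of neurogenic progenitors, read 9.05 in forebrain and 9.54 in hippocampus (0.49), Gli3, a hedgehog pathway factor of radial glia, 7.79 and 8.26 (0.48), Eomes, of intermediate progenitors, 8.71 and 9.18 (0.47), and the proneural gene Neurog2 8.07 and 8.53 (0.46). Hopx stood at 0.31, Tnc at 0.30, Sox2 at 0.13 and Fabp7 at -0.08. Cell cycle genes were higher for 24 of 26 (median 0.27), and none reached 1.5-fold. Kif11, a mitotic kinesin, read 8.30 and 8.82 (0.51), the thymidylate synthase gene Tyms 7.16 and 7.66 (0.50), the checkpoint kinase gene Bub1 7.97 and 8.45 (0.48), Top2a 9.14 and 9.61 (0.47), Mki67, which encodes the Ki-67 antigen, 8.43 and 8.88 (0.45), and Cenpf 7.62 and 8.06 (0.44). The members that were lower were the G1 cyclins Ccnd1 (-0.24) and Ccne1 (-0.11). The replication helicase genes Mcm2 to Mcm7 stood between 0.19 and 0.25, the replication genes Rrm2 and Pcna at 0.37 and 0.285, and the mitotic genes Cdk1, Cdc20, Aurkb and Ccnb2 at 0.24, 0.19, 0.09 and 0.07.

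Many mitotic genes are known to carry CCAAT boxes, bound by the factor NF-Y, and a cell cycle homology region near their start. RefSeq promoter windows were found for 21 of the 26 kept cell cycle genes, and 19 of them (90.5%) hold CCAAT on either strand, against 41.1% of 27025 genes with such windows. TTTGAA, the core letters of the cell cycle homology region, is in 11 of the 21 (52.4%), against 20.2% of all genes. Both motifs were searched on both strands, matches of one may overlap matches of the other, and a gene was counted when any of its windows held the letters. The windows of Mki67 (GRCm38.p6, chr7:135716330-135716629, minus strand) and Kif11 (chr19:37376132-37376431, plus strand) are shown as examples of genes that read higher together, with both motifs in capitals.
Mki67: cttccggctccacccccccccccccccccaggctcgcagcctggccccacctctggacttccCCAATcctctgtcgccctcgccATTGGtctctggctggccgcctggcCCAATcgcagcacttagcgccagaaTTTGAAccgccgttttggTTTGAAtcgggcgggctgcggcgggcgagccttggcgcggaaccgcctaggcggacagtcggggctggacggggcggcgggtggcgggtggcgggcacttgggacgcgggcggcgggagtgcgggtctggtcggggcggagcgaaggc
Kif11: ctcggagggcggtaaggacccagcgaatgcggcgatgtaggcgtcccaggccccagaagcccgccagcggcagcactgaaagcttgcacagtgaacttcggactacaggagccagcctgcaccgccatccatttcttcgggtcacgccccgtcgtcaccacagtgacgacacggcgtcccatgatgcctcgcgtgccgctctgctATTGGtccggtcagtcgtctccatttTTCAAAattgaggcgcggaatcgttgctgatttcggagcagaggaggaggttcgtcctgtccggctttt
The Mki67 window holds 3 matches to CCAAT and 2 to TTTGAA, and the Kif11 window 1 of each. A match is a description of the letters and not a measured site.

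Most genes of synapses and neurotransmission were lower in hippocampus, and genes of peptides and axon guidance were divided. Of 31 kept synaptic genes 26 were lower, 4 by 1.5-fold, with a median of -0.23. Over all kept genes 47.5% were lower and 1.19% by 1.5-fold. The kainate receptor gene Grik1 read 8.59 in forebrain and 7.79 in hippocampus (-0.80), the synapse organizer gene Cbln2 9.11 and 8.40 (-0.71), the GABA-A receptor gene Gabra3 9.72 and 9.08 (-0.64) and the vesicular glutamate transporter gene Slc17a7 8.96 and 8.32 (-0.64). The postsynaptic protein genes Nrgn and Camk2a stood at -0.53 and -0.45, and the vesicle protein genes Syp, Syt1 and Syn1 at -0.39, -0.38 and -0.33. Nearest to 0 were members such as Snap25 (-0.01), Grin2b (-0.04) and Gria2 (0.09). Neuropeptide and granin genes were lower for 9 of 15 (median -0.03). The secretogranin gene Scg2 read 8.70 and 7.64 (-1.06) and Vgf, a secreted neuronal precursor, differed by -0.50, while neurotensin (Nts), known from the subiculum, read 9.18 and 9.70 (0.52) and cholecystokinin (Cck) differed by 0.45. Axon guidance and adhesion genes were lower for 26 of 44 (median -0.04, and 0.02 with the stricter filter), with the protocadherin gene Pcdh11x at -1.002, Efnb3 at -0.55, Cntn4 at -0.57 and Sema3c at 0.56.

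Choroid plexus genes were higher in hippocampus for 8 of 8 kept members (median 0.36), where 52.4% of all kept genes were higher. Of the 8, 2 passed 1.5-fold, where 0.0908% of kept genes did. Ttr read 12.00 in forebrain and 12.57 in hippocampus (0.57), Folr1 7.29 and 7.89 (0.61) and Clic6 7.32 and 7.91 (0.60). The water channel gene Aqp1, the potassium channel gene Kcnj13 and the homeobox gene Otx2 stood at 0.37, 0.36 and 0.35, and Lbp at 0.02. The summed signal of the list was 5225 in forebrain and 7532 in hippocampus, most of it from Ttr, and without Ttr it was 1140 and 1471. The part of choroid plexus in the other differences was not tested. Of ependymal genes only Foxj1, at -0.02, was kept. Astrocyte genes were lower for 8 of 10 (median -0.20), where 47.5% of kept genes were. The largest difference was that of the connexin gene Gja1, which meninges also express, at 10.13 and 9.13 (-0.999). Apoe and Aqp4 stood at -0.31 and -0.29 and Aldoc at 0.24. Oligodendrocyte lineage genes were lower for 8 of 9, where 47.5% of kept genes were, but by a median of only -0.09. Lhfpl3 stood at -0.50 and the precursor gene Pdgfra at -0.48 but Olig1 and Olig2 at -0.09 and 0.07.

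Imprinted growth genes, which are expressed from the allele of a given parent and are found in meninges and ventral brain as well as elsewhere, were lower for 13 of 14 (median -0.40), 4 of them by 1.5-fold. Over all kept genes 47.5% were lower and 1.19% by 1.5-fold. Igf2 read 10.01 in forebrain and 9.10 in hippocampus (-0.91), Peg10 9.44 and 8.60 (-0.84), Dlk1 8.70 and 7.96 (-0.75) and Zim1 8.43 and 7.73 (-0.70), and Plagl1 was the exception at 0.18. Igf2 also belongs to the meningeal list. Retinoid genes were higher for 8 of 14 (median 0.04, and 0.25 with the stricter filter). Aldh1a2 (-1.17) and the binding protein gene Crabp2 (-0.74), both meningeal, and Ttr (0.57) had the largest differences, and all of these are also in the meningeal or choroid plexus list. Immediate early genes showed no common direction (4 higher, 5 lower, median -0.0005, which turns positive with each array centred), with Nr4a3 at 0.49.

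Sex-linked genes differed between the arrays. Eif2s3y, Uty and Kdm5d, all on the Y chromosome, were higher in hippocampus after PBS, and Xist, the RNA that silences an X chromosome in females, read 11.48 and 11.32 (-0.16). The median of the 4 genes was 0.65. After ethanol the same 4 genes had the opposite sign, with a median of -0.29. The sexes of the embryos are not in the labels, and the part of sex in the other differences was not tested.

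**Figure D2:**
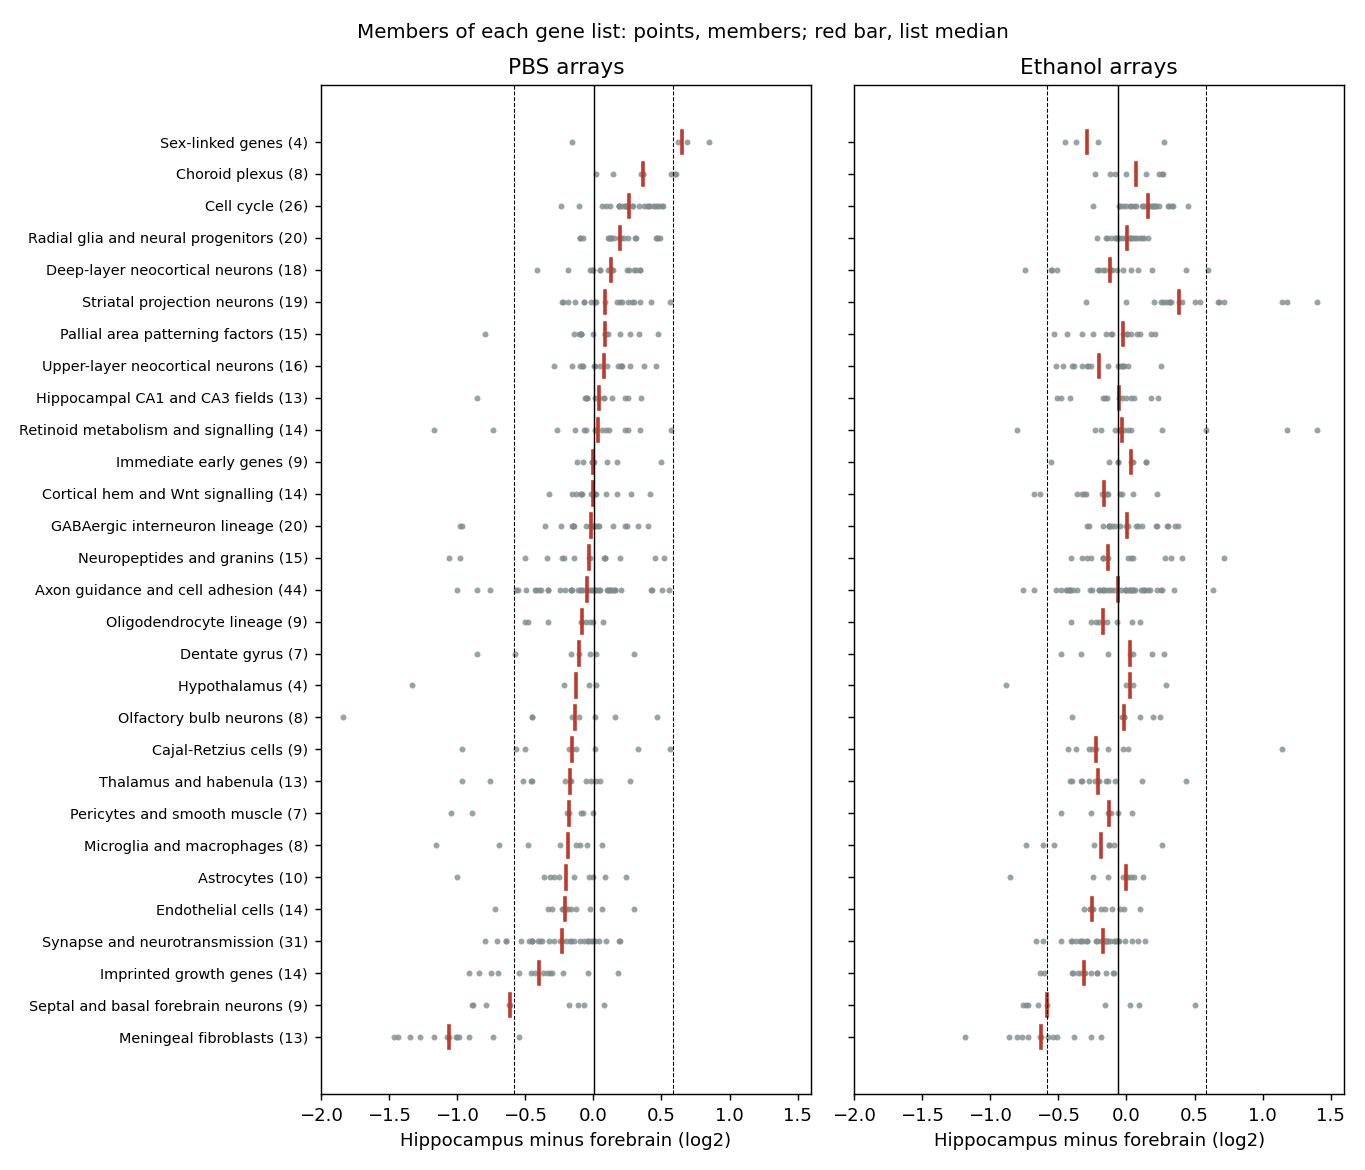
Hippocampus minus forebrain (log2) for every kept member of each gene list, after PBS (left) and after ethanol (right), 1 array per tissue and treatment; red bars are list medians, the solid line is the median over all kept genes, dashed lines mark 1.5-fold, and the number of kept members follows each name. Meningeal genes have medians of -1.06 and -0.63, and striatal genes 0.09 and 0.39.

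The ethanol arrays are a further pair of the same tissues and share no array with the PBS pair, so they show which of these differences recur. After ethanol 59 genes were at least 1.5-fold lower in hippocampus (0.536%) and 17 higher (0.154%), with a median over kept genes of -0.06 and a standard deviation of 0.162. Of the 131 genes lower after PBS, 30 (22.9%) were also 1.5-fold lower after ethanol, which is 50.8% of the genes lower there and 0.272% of kept genes. With each array centred on its median, 17 were lower in both. Of the 10 higher genes Nexn and Strip2 (20.0%, and 11.8% of the 17 higher after ethanol; 0.0182% of kept genes) were higher in both. No gene was past this threshold in both pairs with opposite signs. Of the 131, 127 had a negative ethanol difference, where 69.6% of all kept genes did. Across kept genes the differences had the same sign in 59.6% and correlated at r = 0.441, where genes are not independent.

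Among genes lower in both pairs, Gjb2 read 7.69 and 6.68 after PBS and 7.75 and 6.57 after ethanol in forebrain and hippocampus, a difference of -1.01 and -1.18. Both hippocampus readings of Gjb2 lie below the filter value, as they do for 3 of the 30 genes (Fmod, Gjb2 and Tmem255a), which passed the filter through forebrain. Gja1 read 10.11 and 9.26 after ethanol (-0.85), Zic2 8.77 and 8.03 (-0.74), and Tafa1, a secreted brain protein gene, 9.16 and 8.25 (-0.91) beside 9.18 and 8.42 after PBS (-0.75). The claudin gene Cldn11 differed by -0.91 and -0.79, Tmem255a by -0.96 and -0.81, the collagen gene Col1a2 by -1.07 and -0.77, the endocytic adaptor gene Dab2 by -0.75 and -0.74 (a far dimmer second probe set differed by 0.29 after PBS), Vwc2l by -1.06 and -0.75 and Mal2 by -0.75 and -0.73. In each of these genes both forebrain arrays lay above both hippocampus arrays. On the higher side Nexn read 6.64 and 7.68 after ethanol (1.04) and Strip2 7.24 and 8.08 (0.85), and both hippocampus arrays lay above both forebrain arrays.

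Several of the lowest genes did not recur, and their low value belonged to the hippocampus PBS array alone. Cdhr1 read 7.79 in forebrain and 7.99 in hippocampus after ethanol (0.20), so that 3 arrays lay between 7.79 and 7.99 and the hippocampus PBS array at 6.13. Cpne6 read 8.36 and 8.17 after ethanol, against 8.46 and 7.09 after PBS. The growth factor gene Igf1 read 7.64 and 6.65 after PBS (-0.99) and 7.49 and 7.73 after ethanol (0.24). The signalling gene Rasgrp1 differed by -0.59 after PBS and by 0.45 after ethanol. Sst, Scg2 and Cbln2 differed by -0.18, -0.18 and -0.01 after ethanol. Of the 131 lower genes, 52 differed by less than 0.322 (log2) after ethanol. The other way about, Rxrg and Met, a growth factor receptor, differed by 1.40 and -0.98 after ethanol but by 0.35 and -0.05 after PBS.

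Some lists had medians of the same sign in both pairs and others did not. After ethanol 69.6% of kept genes were lower and 30.4% higher, and the medians were -0.58 for septal and basal forebrain genes (-0.15 with the other Zic5 probe set), -0.31 for imprinted genes, -0.17 for synaptic genes (28 of 31 lower), -0.63 for meningeal genes (13 of 13 lower) and 0.16 for cell cycle genes (21 of 26 higher). Choroid plexus genes stood at 0.07 with 4 higher and 4 lower, and progenitor genes at 0.0069 with 10 and 10. Striatal genes stood at 0.39 with 17 of 19 higher, where Rarb, Ebf1 and Drd2 differed by 1.18, 1.14 and 0.68. Upper-layer and deep-layer genes stood at -0.20 and -0.12, with opposite sign to PBS. The difference between the pairs was not tested, since 1 array stands behind each mean.

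**Figure D3:**
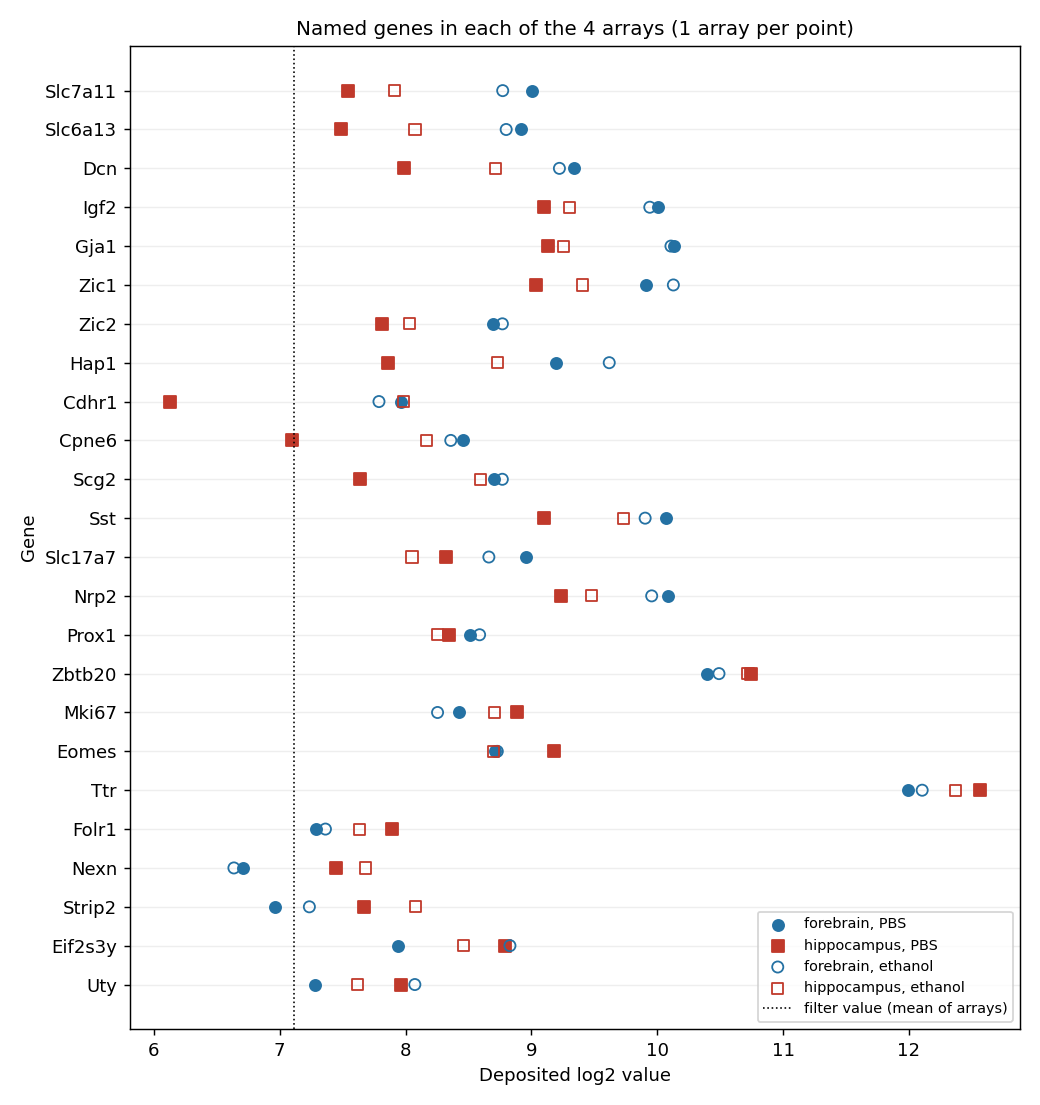
Deposited log2 value (horizontal axis) of 24 genes in each of the 4 arrays, circles for forebrain and squares for hippocampus, filled after PBS and open after ethanol; the dotted line is the filter value of 7.11. For Slc7a11, Zic1 and Gja1 both squares lie left of both circles, whereas for Cdhr1 only the filled square stands apart, at 6.13.

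**Figure D4:**
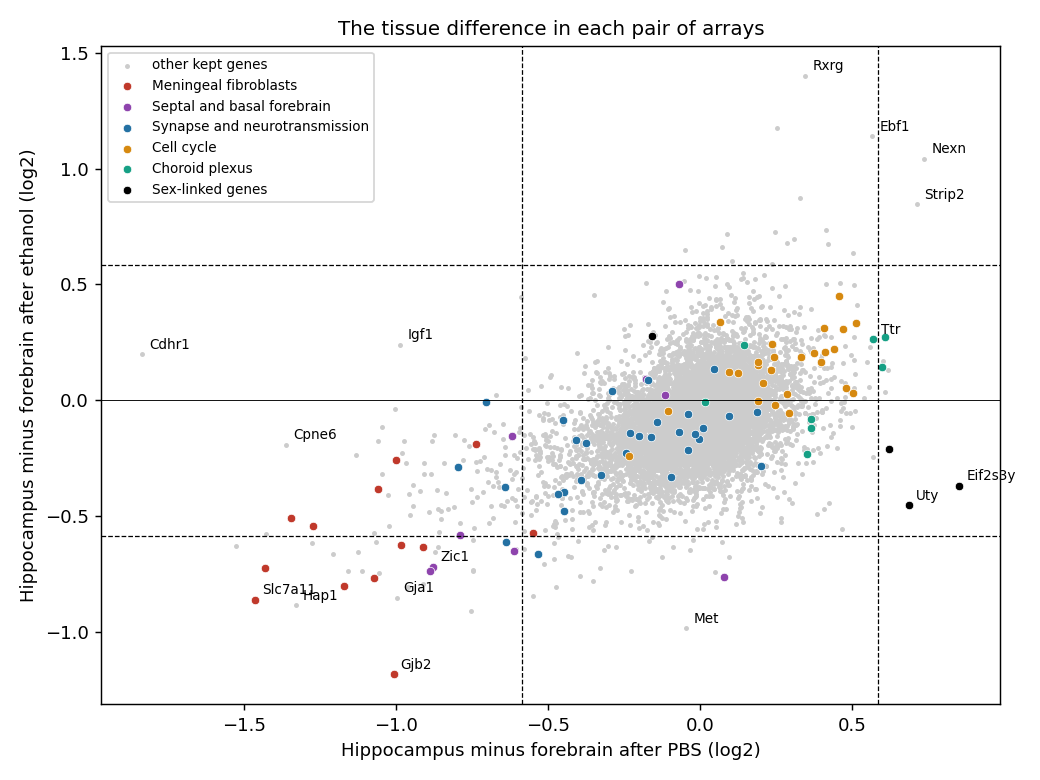
Hippocampus minus forebrain after ethanol (vertical axis, log2) against the same difference after PBS (horizontal axis, log2) for 11013 kept genes, with 6 gene lists coloured and dashed lines at 1.5-fold. In the lower left lie 30 genes that are 1.5-fold lower in both pairs, and in the upper right Nexn and Strip2.

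A test of tissue was possible only over both treatments. In limma, with treatment as an additive term and Benjamini-Hochberg adjustment over 11013 genes, 112 genes fell in hippocampus relative to forebrain (1.02%) and 12 rose (0.109%) at an adjusted p of 0.05. Of these, 11 that fell and 1 that rose lay below the filter value on both arrays of the lower tissue. The 11 include the meningeal genes Gjb2 and Foxc1 and the macrophage gene Lyve1. With each array centred on its median the genes that fell and rose were 45 and 21, and with tissue alone in the model 0 and 0 (1023 and 232 at an unadjusted p of 0.05). Gja1 fell by 0.93 (SE 0.0710, limma's Benjamini-Hochberg adjusted p = 0.0175), and the endothelial and meningeal chemokine gene Cxcl12 by 0.61 (limma's adjusted p = 0.0337). Nexn, whose forebrain readings both lie below the filter value so that it passed through hippocampus alone, rose by 0.89 (SE 0.101, limma's adjusted p = 0.0190), Strip2 by 0.78 (adjusted p = 0.0179) and the ephrin receptor gene Epha4, at 10.23 and 10.73 after PBS, by 0.57 (adjusted p = 0.0175). Other genes that rose included Ebf1 (0.85), Foxp1 (0.55), the linker histone gene H1f5 (0.50), which has near-identical relatives, the genes of dividing cells Cdca7 (0.48), Hmgb2 (0.46) and Mki67 (0.45), and Nts (0.46), with adjusted p between 0.0179 and 0.0472. By list, 9 of 13 meningeal genes fell, 4 of 9 septal and basal forebrain genes (Zic1, Zic2, Zic4 and the doubtful probe set of Zic5), 6 of 31 synaptic genes (Slc17a7, Nrgn, Slc17a6, Gabra3, Syp and Cbln1), 4 of 14 imprinted genes (Igf2, Dlk1, Mest and Peg10) and 3 of 8 macrophage and microglial genes (Mrc1, Lyve1 and C1qc). Of hippocampal field genes only Nrp2 passed, and it fell by 0.66 (adjusted p = 0.0370). Of cell cycle genes Mki67 alone passed and of choroid plexus genes Ttr alone, and none passed among progenitor, layer or GABAergic genes. The fit leaves 1 residual degree of freedom. Each gene's error is its tissue-by-treatment difference, which eBayes draws toward a variance trend shared by all kept genes. The residual standard deviation and the SE were 0.0021 and 0.077 for Mki67, and 0.301 and 0.135 for Slc7a11. These p-values thus rest largely on that shared variance and on the spread between these arrays only, not on replicates within a group.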

How the data were processed

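Fetal mouse RNA was measured on 4 Affymetrix gene arrays, 1 for each of forebrain and hippocampus after PBS or ethanol, and grouped by title. All values analysed are log2 values as the authors deposited them, a scale that was read from their range of 1.58 to 13.96. Per the submitters' processing notes MAS5 was used; the sources used here give no version, background correction or normalization. The precision is limited by the number of arrays.

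Of 35557 probe sets 21789 name 1 gene symbol in the platform annotation, 1621 several and 12147 none; 21698 matched RefSeq (GRCm38.p6) by gene identifier and 0 symbols changed. For each gene the probe set of highest mean stood for the gene, and 11013 of 19938 genes passed the filter. Differences are of log2 values, with no pseudocount. Described were 29 of 31 gene lists with at least 3 kept genes, by median and counts. limma 3.58.1 in R 4.3.3 (lmFit, eBayes with trend) was tested on simulated data; all else ran in Python 3.11.15 with pandas 2.3.3, numpy 2.4.6 and, for plots, matplotlib 3.10.9. Named genes are the 15 highest and 15 lowest after PBS, up to 15 per direction that recur after ethanol, the 5 highest and 5 lowest PBS minus ethanol differences, up to 10 per direction called by limma and up to 6 per list; others, such as Wfs1, Prox1 or Cxcl12, were chosen after their values were seen. Members and lists were chosen with earlier results of these data known. Alternatives were array centring, quantile normalization, a 75th percentile filter, no filter, averaged probe sets and a fold threshold of 2 or a log2 threshold of 0.322; for limma also no trend, tissue alone and each array left out. Chosen after seeing the data were the other Zic5 probe set, Zic5 left out and choroid plexus genes without Ttr.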

Additional observations from a re-analysis of the deposited data

Results flagged for a closer look

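The tissue difference had opposite signs after PBS and after ethanol for 5 named genes that were at least 0.322 (log2) apart in each pair, a difference between the treatments that was not tested. Eif2s3y differed by 0.85 after PBS and -0.37 after ethanol, and Uty by 0.69 and -0.45. Adamts3, a metalloprotease gene, differed by 0.38 and -0.49, the replication protein gene Rpa3 by 0.41 and -0.47, and Rasgrp1 by -0.59 and 0.45. Among lists, the median of deep-layer neocortical genes was 0.13 after PBS and -0.12 after ethanol, and that of sex-linked genes 0.65 and -0.29.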

How the results depend on the processing

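Genes 1.5-fold lower and higher after PBS numbered 36 and 1 with the 75th percentile filter, 200 and 37 without a filter, 28 and 0 at 2-fold and 503 and 168 at a log2 threshold of 0.322, and stayed within 1.5 times of 131 and 10 with array centring, quantile normalization and averaged probe sets. Genes lower and higher in both pairs numbered 8 and 0 with the 75th percentile filter, 1 and 0 at 2-fold and 186 and 17 at 0.322. Those lower in both were 17 with centring, and those higher in both 5 without a filter. limma's lower and higher calls were 45 and 21 with centring, 352 and 71 after quantile normalization, 33 and 4 without a filter, 25 and 2 without a trend and 0 and 0 with tissue alone. The higher ones were 23 with the 75th percentile filter. Leaving out 1 array, with tissue alone as the term, gave 44 to 1540 lower and 7 to 471 higher genes: 58 and 8 without the forebrain PBS array, 1540 and 284 without the hippocampus PBS array, 44 and 7 without the forebrain ethanol array and 836 and 471 without the hippocampus ethanol array. A tissue left with 1 array is assumed there to vary like the other. Of the 20 named limma calls, 13 were lost without a trend, 5 with centring, 11 without a filter and 20 with tissue alone.

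With the 75th percentile filter the PBS medians became 0.24 for CA1 and CA3 genes, -0.0699 for septal and basal forebrain genes, 0.0841 for Cajal-Retzius genes and 0.25 for retinoid genes. The septal median was -0.37 without a filter and -0.40 with averaged probe sets. In settings chosen after seeing the data, it was -0.18 with the other Zic5 probe set and -0.40 with Zic5 left out. All other list medians moved by less than the standard deviation of the PBS differences. Averaging probe sets moved Ntng1, Rpa3, Zic4 and Zic5 by more than that, to -0.43, 0.22, -0.43 and -0.40. The 75th percentile filter gave no median for 7 lists with too few genes left. The cause of these changes was not tested. No pairing by embryo or litter was possible, because the labels give no replicate numbers and each group is 1 array.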

Other observations

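Outside the genes that were kept, 8925 genes fell under the filter, and among them 69 were 1.5-fold lower and 27 higher in hippocampus after PBS. Of 5575 probe sets above the filter value that name no gene or several, 13 were 1.5-fold lower and 65 higher, so the direction among these was opposite to that of named genes. They are counted here without names.

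The gene lists hold 374 of the 11013 kept genes and 39 of the 131 genes lower in hippocampus after PBS. They were chosen with earlier results of these data known. The other 92 of the 131 genes belong to none of the lists. The following 7 were chosen after their values were seen. Postn, a matrix protein gene, differed by -0.96 after PBS and -0.405 after ethanol, Igfbp5 by -0.91 and -0.27 and Thbd, the thrombomodulin gene, by -1.07 and -0.57. The neuronal chloride transporter gene Slc12a5, whose level rises as neurons mature, differed by -0.95 and -0.50, Adcy8 by -0.87 and -0.65, the serotonin receptor gene Htr7 by -0.86 and -0.57 and the NMDA receptor gene Grin3a by -0.74 and -0.55.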
